A study of Mus musculus with 6 samples.

Results

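The contractile actin and myosin cytoskeleton was followed through 46 genes chosen by symbol. They run from the actins and myosins themselves to their crosslinkers, regulators and the transcription factor SRF. The choice was made with earlier results of these data known. An Illumina mouse bead array measured 43 of the 46 among 19057 genes in immortalized proximal tubular cells of C56BL/6 background. Glis2KD cells carried a stable short hairpin RNA against Glis2 and Control cells one against GFP, delivered by lentivirus, and both were harvested 7 days after infection, with 3 arrays in each group. The labels do not tell whether the arrays of a group stand for separate infections, so the p-values describe array-to-array spread within these 6 samples, and that spread may be technical only. Mkl1 and Mkl2 were found under their current symbols Mrtfa and Mrtfb, and Actg1, Cnn3 and Rock2 were not analysed here. The question was whether the other contractile genes rise together with the smooth muscle actin Acta2.

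Cells pull on their surroundings when myosin II filaments slide along actin filaments. Kinases switch this on by phosphorylating the myosin light chains, and tropomyosins, calponins and caldesmon set which actin filaments myosin can use. When actin polymerises, the MRTF coactivators, encoded by Mkl1 and Mkl2, are released into the nucleus and bind SRF, which transcribes many genes of the same machinery. In the injured kidney Acta2 is the usual marker of myofibroblasts, whereas healthy tubular cells rely on nonmuscle myosins and cytoplasmic actins.

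The arrays share 1 intensity distribution, and 40.6% of probes on each array lay above the background limit of 137. That limit is the most frequent intensity, 113, plus 3 times the SD of the values below it, and background is contained in all intensities given. Glis2 itself had intensities of 169, 161 and 176 in Glis2KD cells, against 278, 234 and 230 in Control cells, lower on every knockdown array. This was a log2 fold change of -0.55 ± 0.092 (SE; limma's adjusted p = 6.32e-05), and -1.26 with the most frequent intensity subtracted. Glis2 has 2 probes, of which the brighter is given, and over 17 alternatives its log2 fold change ran from -1.26 to -0.44. Of 11 measured proximal tubule markers 3 lay above the limit, namely Aqp1, Mme and Dab2, while Lrp2, Cubn and Slc34a1 did not, and 6 of 7 epithelial markers did. These are bulk RNA values, in which fewer cells of a type and less RNA per cell cannot be told apart.

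Many of the measured contractile genes were higher in the knockdown, by less than Acta2 on intensities that include background. Of the 43 genes 23 rose, 4 fell and 16 were not called at limma's adjusted p under 0.05. Over all genes 22.5% were called, 11.2% as higher and 11.4% as lower. The median log2 fold change was 0.29 over the 43 genes and 0.00398 over all 19057. These contrasts are descriptive, since the members were chosen with earlier results of the data known. Apart from Acta2 at 3.17, the 22 other genes that rose had log2 fold changes from 0.24 to 1.06. The genes that fell were Mylk, Gsn, Rock1 and Myh14.

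**Figure D1:**
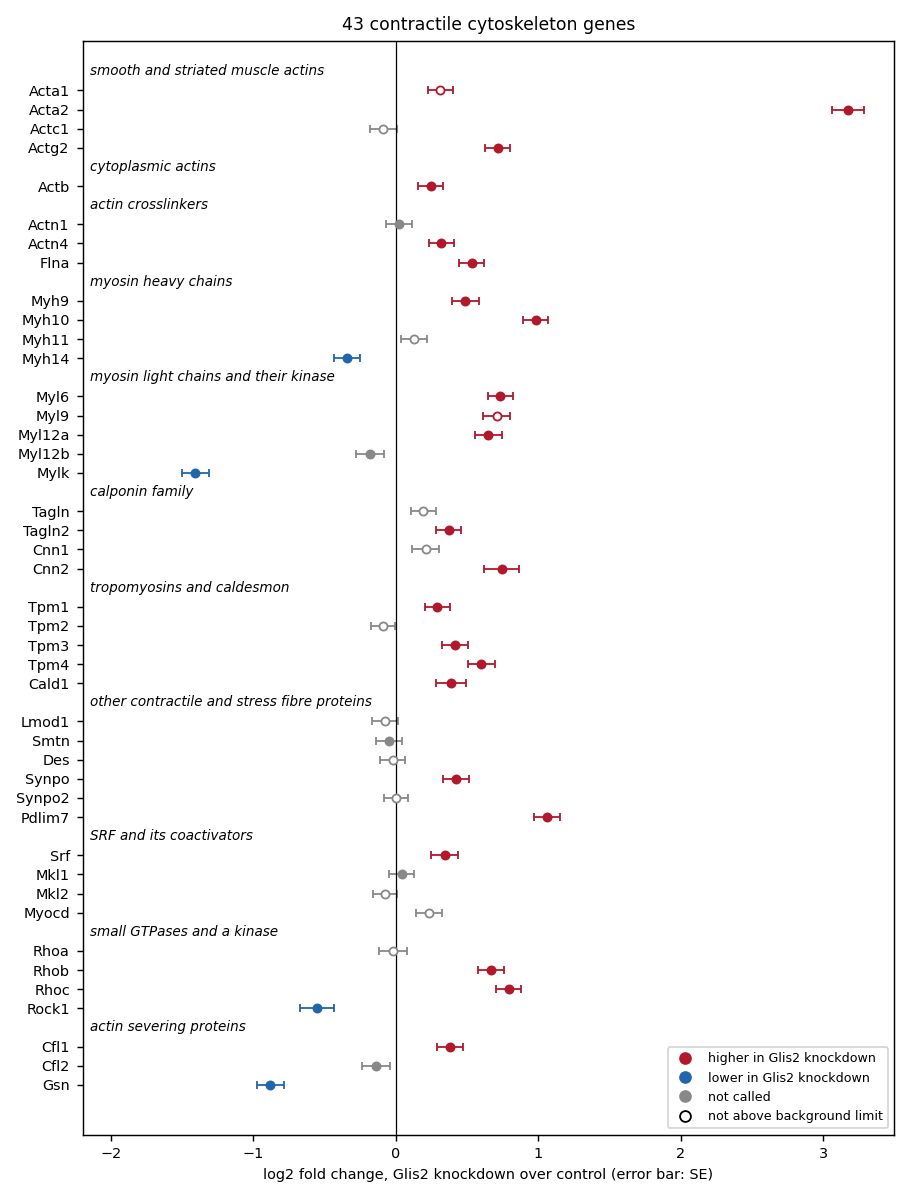
Log2 fold change of Glis2 knockdown over control for the 43 measured genes, grouped by role, with the SE as error bar and open symbols for genes not above the background limit. Acta2 stands at 3.17, the 22 other higher genes lie between 0.24 and 1.06, and 4 genes are lower.

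Signal strength divided the genes. Of the 30 above the background limit 21 rose, 4 fell and 5 were not called, where 43.3% of all genes above the limit were called and 21.3% were called higher. Their median was 0.39, against -0.00535 for all genes above the limit. Among the 30, Actg2 passed the limit only through its knockdown arrays, as all its Control arrays lay under it. Of the 13 that were not above it, only Acta1 and Myl9 were called, and the other 11 lay between 95.8 and 149 on every array. At that signal a change in those 11 was hardly detectable. Knockdown and control arrays were fully separated in 29 of the 43 genes and in 32.3% of all genes. Called changes of at least 0.5 in size on the log2 scale were found for 15 genes, 12 higher and 3 lower, and for 9.82% of all genes.

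**Figure D2:**
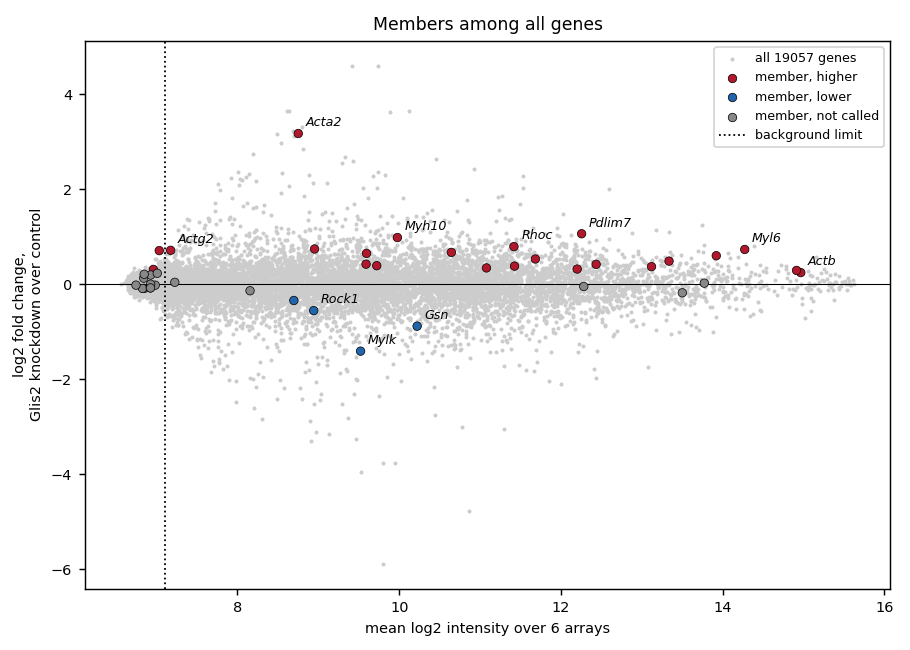
Mean log2 intensity over the 6 arrays (x axis) against log2 fold change of Glis2 knockdown over control (y axis) for all 19057 genes in grey and the 43 contractile genes in colour. Of the 43 genes, 11 uncalled ones crowd left of or at the dotted background limit, and Acta2 stands at 3.17. The intensities include background, so genes near the limit have no exact rank.

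Acta2 encodes the actin of vascular smooth muscle and was the gene with rank 9 among all genes by log2 fold change. Its probe had 1477, 1295 and 1133 in Glis2KD cells, against 120, 169 and 146 in Control cells. All 3 knockdown arrays were high and 1 control array lay under the background limit, and the groups were far apart. The log2 fold change was 3.17 ± 0.11 (SE; limma's adjusted p = 3.10e-16). With the most frequent intensity subtracted it was 5.26, and as a mean over the 6 Acta2 probes 0.98, with limma's adjusted p at most 0.00736 over the 17 alternatives.

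The 6 Acta2 probes differed in intensity and in log2 fold change. After the brightest one, ILMN_2923445 had 335, 335 and 287 in Glis2KD cells and 120, 124 and 131 in Control cells, with a log2 fold change of 1.35. ILMN_2710354 and ILMN_2710353 had 0.86 and 0.68, both called in a fit of single probes in which 17.6% of all probes with 1 symbol were called. The remaining pair lay under the background limit, with -0.08 and -0.11. Thus 4 of 6 probes rose, each with control arrays near or under the limit. For ILMN_2923445 and ILMN_2710353 all control arrays were under it, so their log2 fold changes have no exact size. Whether the probes differ beyond the effect of background was not tested, and probe sequences were not used here.

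The RefSeq promoter window of Acta2, 250 bases before to 50 after the annotated start at chr19:34255324-34255623 on the minus strand of GRCm38.p6, is shown because it is the gene with the largest rise among the members. Capitals mark matches to the CArG box, the element bound by SRF, with 1 G or C in its A and T core. Their first bases lie at -84 and -34 from the RefSeq start.
Acta2: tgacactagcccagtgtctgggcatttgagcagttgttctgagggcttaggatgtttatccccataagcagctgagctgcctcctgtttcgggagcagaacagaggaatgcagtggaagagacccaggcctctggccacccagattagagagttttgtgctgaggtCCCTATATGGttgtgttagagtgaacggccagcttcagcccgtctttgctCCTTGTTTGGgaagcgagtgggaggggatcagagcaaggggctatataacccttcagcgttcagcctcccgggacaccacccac

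The other muscle actins had control arrays wholly under the background limit, so the size of any rise has only a lower bound. Actg2, the actin of visceral smooth muscle, had 175, 198 and 183 in Glis2KD cells, against 111, 108 and 119 in Control cells. All control arrays were under the background limit and all knockdown arrays were above it, so Actg2 was at least 1.35-fold higher. Its log2 fold change was 0.71 ± 0.088 (SE; limma's adjusted p = 9.29e-07), and 2.16 with the most frequent intensity subtracted. The skeletal muscle actin Acta1 had 131, 143 and 143 in Glis2KD cells, against 118, 112 and 106 in Control cells. Its values straddled the limit in the knockdown and stayed under it in the control, a rise of at least 1.01-fold whose call was lost with the most frequent intensity subtracted, where limma's adjusted p was 0.198. Over its 15 alternatives the adjusted p ran from 0.00523 to that value. The cardiac actin Actc1 was under the limit on all 6 arrays.

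Actb, the cytoplasmic beta actin present in every cell, had 36512, 34711 and 33357 in Glis2KD cells, against 28753, 31033 and 28496 in Control cells. The groups did not overlap, yet the difference was small, with a log2 fold change of 0.24 ± 0.086 (SE; limma's adjusted p = 0.0438). That call was lost in 11 of 17 alternatives, including leaving out any array other than Control replicate 2. Over the 17, limma's adjusted p ran from 0.0126 to 0.732, and the log2 fold change was 0.14 relative to neighbouring genes and 0.09 as the mean of probes. Of the further Actb probes ILMN_2617433 rose by 0.34 and ILMN_1377923 was not called at -0.25. ILMN_2846865, also not called, had 241, 259 and 291 in Glis2KD cells, against 413, 159 and 266 in Control cells, where it spread widely.

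Among the proteins that crosslink actin filaments, filamin A and alpha-actinin 4 rose and alpha-actinin 1 was not called. Flna had 3878, 4204 and 3798 in Glis2KD cells, against 2613, 2718 and 2889 in Control cells. The groups were well separated, with a log2 fold change of 0.53 ± 0.087 (SE; limma's adjusted p = 4.65e-05). Flna lies on the X chromosome, and relative to its 50 nearest genes above background it had 0.65, and 0.29 as the mean of its probes. The second Flna probe lay under the background limit. Actn4 had 0.32 and Actn1 had 0.02. Of the further Actn4 probes ILMN_2672767 rose by 0.61 and ILMN_1242390 was not called at 0.14. The call of Actn4 was lost without Control replicate 3 or Glis2KD replicate 2 (limma's adjusted p = 0.0547 and 0.0526). It was also lost with the most frequent intensity subtracted and after normexp correction (limma's adjusted p = 0.0704 and 0.0527). Relative to neighbouring genes Actn4 had a log2 fold change of 0.18, not called (limma's adjusted p = 0.156). Its adjusted p over 17 alternatives ran from 0.00116 to that value.

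**Figure D3:**
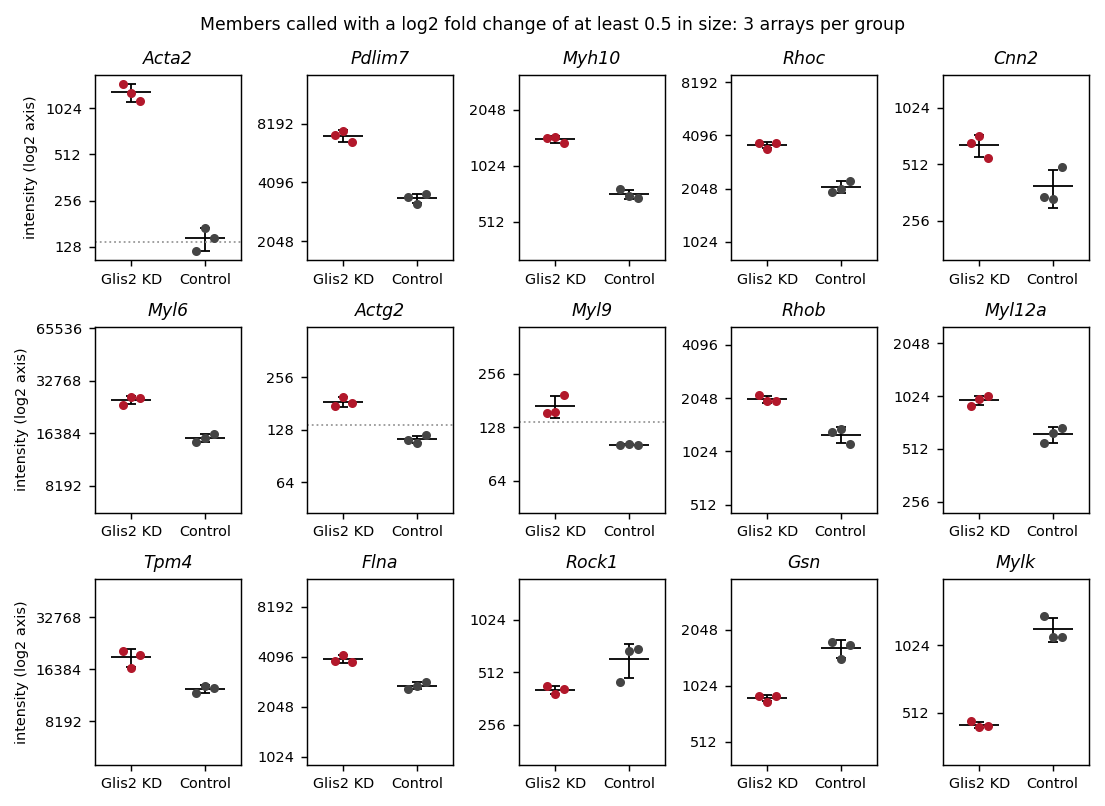
Intensity on a log2 axis for the 15 genes called with a log2 fold change of at least 0.5 in size, with 3 points per group, the mean and the SD, and the background limit as a dotted line. In none of the 15 genes do the 3 Glis2 knockdown arrays overlap the 3 control arrays, and the Control arrays of Rock1 and Cnn2 spread most visibly.

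The heavy chains of nonmuscle myosin II went in different directions. Myh10, the heavy chain of myosin IIB, had 1446, 1456 and 1353 in Glis2KD cells, against 761, 706 and 687 in Control cells. This is a clear separation with a log2 fold change of 0.98 ± 0.087 (SE; limma's adjusted p = 4.47e-09). Myh9, the heavy chain of myosin IIA, had 11267, 13578 and 12007 in Glis2KD cells, against 8949, 9363 and 7976 in Control cells. Its log2 fold change was 0.49 ± 0.094 (SE; limma's adjusted p = 0.000324). Myh14, the heavy chain of myosin IIC, had 357, 361 and 390 in Glis2KD cells, against 437, 509 and 459 in Control cells, all lower in the knockdown. Its log2 fold change was -0.34 ± 0.089 (SE; limma's adjusted p = 0.00559), and -0.54 relative to neighbouring genes. With the most frequent intensity subtracted it was not called (limma's adjusted p = 0.0513), and over 17 alternatives the lowest was 4.31e-05. Myh11, the smooth muscle heavy chain, was under the limit on all arrays.

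The differences between heavy chains were tested as log2 differences from Myh9 within each array, a comparison added after the values had been seen, in which 87.5% of all genes were called. The log2 fold change of Myh10 exceeded that of Myh9 by 0.50 ± 0.14 (SE; limma's adjusted p = 0.0011), and that of Myh14 was below it by -0.83 ± 0.14 (SE; limma's adjusted p = 7.44e-08). With the mean of all probes of each gene the excess of Myh10 was 0.15 and was not called, and Myh9 itself was not called (limma's adjusted p = 0.265 and 0.109). Both further Myh10 probes lay under the background limit, and the mean over the Myh10 probes gave a log2 fold change of 0.33. The further Myh9 probes averaged 145 and 131 over the 6 arrays, near that limit, against 10523 for the probe used. All genes share the array values of Myh9 in this comparison, so its p-values are too small.

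The light chains of myosin II mostly rose while Mylk, a kinase of the regulatory light chains, fell. Myl6, the essential light chain, had 23957, 26409 and 26235 in Glis2KD cells, against 14583, 15397 and 16149 in Control cells. Its log2 fold change was 0.73 ± 0.087 (SE; limma's adjusted p = 5.78e-07), and its second probe gave 0.77. Myl12a, a regulatory light chain of nonmuscle myosin, had 905, 983 and 1024 in Glis2KD cells, against 553, 629 and 678 in Control cells. All knockdown arrays were higher, with a log2 fold change of 0.65 ± 0.094 (SE; limma's adjusted p = 8.13e-06). Myl9, the regulatory light chain of smooth muscle, had 154, 155 and 196 in Glis2KD cells, against 102, 103 and 102 in Control cells. The control arrays were all under the background limit and Myl9 was at least 1.22-fold higher, with a log2 fold change of 0.71 ± 0.096 (SE; limma's adjusted p = 3.60e-06), and 1.71 with the most frequent intensity subtracted.

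The brightest probe of Myl12b, a close relative of Myl12a, was not called at -0.18, with overlapping groups. Its other probes were both called higher, at 0.58 and 0.35, so the gene had a log2 fold change of 0.25 as the mean of its 3 probes (limma's adjusted p = 0.0142, the lowest of 17 alternatives, of which 0.734 was the highest). Whether these probes tell Myl12a and Myl12b apart was not tested.

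Mylk encodes myosin light chain kinase, which phosphorylates the regulatory light chains when calcium rises. It had 468, 440 and 447 in Glis2KD cells, against 1378, 1119 and 1115 in Control cells. All 3 knockdown arrays lay below 50% of every control array. The log2 fold change was -1.41 ± 0.094 (SE; limma's adjusted p = 3.78e-11), and further probes gave -1.20 and -0.86, while the last one lay under the background limit. As a mean over the 4 probes the log2 fold change was -0.83.

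**Figure D4:**
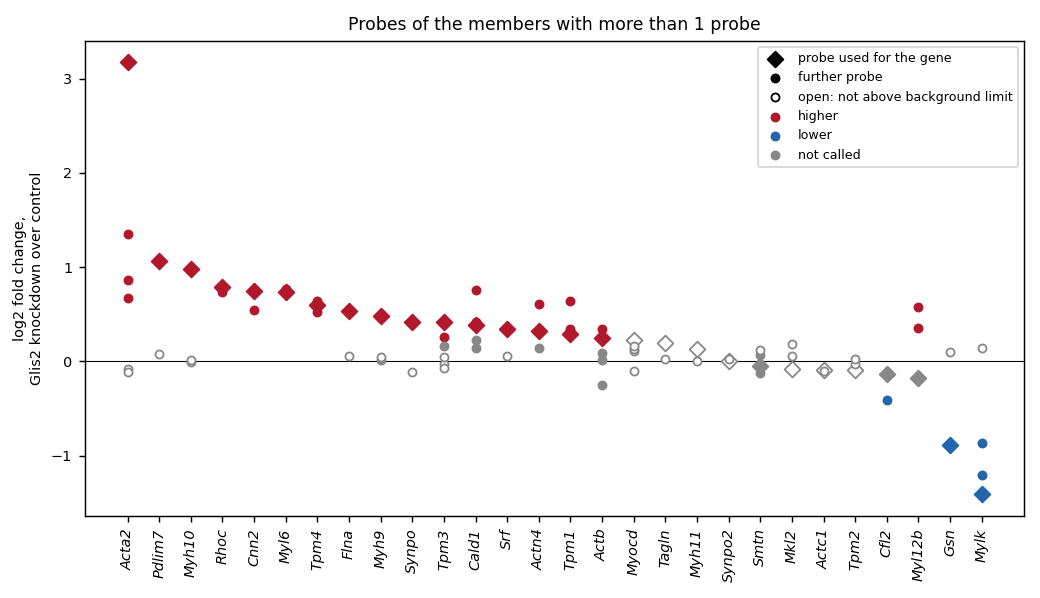
Log2 fold change of Glis2 knockdown over control for each probe of the 28 genes with more than 1 probe, with a diamond for the probe used and open symbols for probes not above the background limit. The used Acta2 probe at 3.17 stands above the further ones at 1.35, 0.86 and 0.68, and the used probe of Myl12b at -0.18 lies below its others.

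In the calponin family the widely expressed members rose and the smooth muscle ones stayed under the background limit. Cnn2, calponin 2, had 662, 723 and 550 in Glis2KD cells, against 343, 334 and 492 in Control cells. Control replicate 3 came closest to the knockdown arrays without overlapping them. The log2 fold change was 0.74 ± 0.12 (SE; limma's adjusted p = 5.18e-05), and 0.41 relative to neighbouring genes on chromosome 10, whose median had shifted by 0.33. A second Cnn2 probe was called higher at 0.54. The call of Cnn2 was lost with the most frequent intensity subtracted (limma's adjusted p = 0.108, the highest of 17 alternatives, with 2.06e-06 the lowest). Tagln2, transgelin 2, had 9555, 10612 and 10233 in Glis2KD cells, against 7896, 7354 and 8271 in Control cells, a log2 fold change of 0.37 ± 0.088 (SE; limma's adjusted p = 0.00245). Tagln, the smooth muscle transgelin, had 0.19 and Cnn1, smooth muscle calponin, had 0.21, neither called and neither above the limit on any array. Without Glis2KD replicate 3 Cnn1 was called at 0.30 (limma's adjusted p = 0.0346), and relative to neighbouring genes at 0.30 (0.0189), within a range from 0.0189 to 0.668 over its 15 alternatives.

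Tropomyosins coil along actin filaments, and 3 of 4 rose. Tpm4 had 21055, 16642 and 19876 in Glis2KD cells, against 11913, 13099 and 12811 in Control cells. The groups were clearly apart, with a log2 fold change of 0.60 ± 0.095 (SE; limma's adjusted p = 3.00e-05), and its further probes gave 0.64 and 0.53. Tpm3 and Tpm1 had 0.42 and 0.29, and Tpm2 was under the limit on all arrays. A second probe of Tpm1, ILMN_2518346, gave 0.64, with 14512, 14454 and 14795 in Glis2KD cells and 9951, 8869 and 9246 in Control cells. Tpm1 was no longer called when Control replicate 1, Control replicate 2 or Glis2KD replicate 3 was left out (limma's adjusted p = 0.0624, 0.0816 and 0.0540), nor after normexp correction (0.0776). Its lowest adjusted p among 17 alternatives was 0.000299. Tpm3 had 0.13 as the mean of its probes, some of them under the background limit, and was then not called (limma's adjusted p = 0.196, its highest of 17, with 0.000349 the lowest). Cald1, caldesmon, which restrains myosin on actin, rose by 0.39 with groups that overlapped on its brightest probe. Further Cald1 probes were called higher at 0.76 and 0.42, and those at 0.22 and 0.15 were not called. The call of Cald1 was lost without Control replicate 3 or Glis2KD replicate 2 (limma's adjusted p = 0.0715 and 0.0690) and with the most frequent intensity subtracted (0.214). The lowest adjusted p of its 17 alternatives was 0.00139.

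Of the other stress fibre proteins Pdlim7 and Synpo rose. Pdlim7, the scaffold also called enigma, had 7165, 7512 and 6558 in Glis2KD cells, against 3439, 3171 and 3554 in Control cells. The knockdown arrays were well above the control arrays, at a log2 fold change of 1.06 ± 0.089 (SE; limma's adjusted p = 2.08e-09), and 0.84 relative to its neighbours on chromosome 13. As the mean over both probes, the second of which was under the background limit, it was 0.57. Synpo, synaptopodin, an actin-binding protein of podocytes, had 883, 871 and 924 in Glis2KD cells, against 727, 658 and 617 in Control cells. It rose by 0.42 ± 0.089 (SE; limma's adjusted p = 0.000779) although the genes around it on chromosome 18 had shifted by -0.37, and relative to them by 0.79. With the mean of its probes, the second of which lay under the background limit, Synpo was not called (limma's adjusted p = 0.127, the highest of 17, with 8.99e-08 the lowest). The podocyte markers Nphs1 and Ptpro were under the background limit and Podxl rose by 0.39. This is 1 of 3 measured podocyte markers, where 22.5% of all genes were called. Smtn, smoothelin, was bright and not called at -0.05, and Lmod1, Des and Synpo2, all muscle proteins, were not above the limit.

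SRF is the transcription factor at the centre of this gene programme. Srf had 2595, 2408 and 2317 in Glis2KD cells, against 2211, 1827 and 1756 in Control cells. The lowest knockdown array lay just above the highest control array. The log2 fold change was 0.34 ± 0.096 (SE; limma's adjusted p = 0.00967), and 0.20 as the mean of its probes, the second of which averaged 136. The call was lost without Control replicate 3 or Glis2KD replicate 1 (limma's adjusted p = 0.0660 and 0.0525) and with the most frequent intensity subtracted (0.141), the highest of 17 alternatives, of which 0.00186 was the lowest. Mkl1 had 137, 157 and 162 in Glis2KD cells and 147, 152 and 144 in Control cells, near the background limit and with overlapping groups. Mkl2 had 117, 123 and 116 in Glis2KD cells and 127, 120 and 127 in Control cells, all under the limit. Myocd, myocardin, the smooth and cardiac muscle coactivator of SRF, had 136, 149 and 135 in Glis2KD cells and 117, 130 and 111 in Control cells, with 1 of 6 arrays above the limit. None of these 3 coactivators was called, although Myocd was called at 0.30 without Control replicate 2 and at 0.26 relative to neighbouring genes (limma's adjusted p = 0.0352 and 0.0383, in a range up to 0.287 over 15 alternatives).

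RefSeq promoter windows of 300 bases were matched for 36 of the 43 genes. A CArG box with its core wholly of A and T reads the same way on both strands as a pattern, and it was found in 6 of their 45 windows (13.3%) and in 535 of 32851 windows of all genes (1.63%). With 1 G or C allowed in the core, the numbers were 12 of 45 (26.7%) and 3280 of 32851 (9.98%). The genes that matched only in this looser way were Acta2, Tpm3 and Myl12a, which rose, Gsn, which fell, and Mkl1, which was not called. The 6 genes with the full box were Srf, Myl9, Cnn2, Myl6, Acta1 and Actc1, of which the first 5 rose and Actc1 was under the background limit. Stretches of 60 bases around the box (capitals) are shown for those 5 because they are the members that pair a rise with the element. On GRCm38.p6 they lie at chr17:46556210-46556269 (minus strand) for Srf, chr2:156775278-156775337 (plus strand) for Myl9, chr10:79988519-79988578 (plus strand) for Cnn2, chr10:128493025-128493084 (minus strand) for Myl6 and chr8:123894814-123894873 (minus strand) for Acta1. The first capitals begin at -82, -161, -56, -50 and -73 from the RefSeq start, in the same order, and Srf holds 2 boxes. A match describes these letters and was not tested for binding. The members were chosen as genes of a machinery that SRF transcribes, so their larger share of boxes says nothing about the knockdown. Of the 5 genes shown, Srf, Cnn2 and Acta1 lost their call in at least 1 alternative, and 23 of all 43 members rose.
Srf: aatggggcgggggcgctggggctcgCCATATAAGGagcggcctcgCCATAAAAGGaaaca
Myl9: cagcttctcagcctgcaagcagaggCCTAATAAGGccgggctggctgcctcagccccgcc
Cnn2: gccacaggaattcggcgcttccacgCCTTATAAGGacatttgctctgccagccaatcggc
Myl6: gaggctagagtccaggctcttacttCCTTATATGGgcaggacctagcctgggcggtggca
Acta1: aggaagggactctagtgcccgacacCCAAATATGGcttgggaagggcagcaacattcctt

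The small GTPase genes Rhoc and Rhob rose and the kinase gene Rock1 fell. Rhoc had 3697, 3427 and 3690 in Glis2KD cells, against 1963, 2022 and 2270 in Control cells. Every knockdown array was clearly higher, with a log2 fold change of 0.79 ± 0.089 (SE; limma's adjusted p = 2.22e-07), and a second probe gave 0.73. Rhob, which sits largely on endosomes, had 2125, 1963 and 1976 in Glis2KD cells, against 1320, 1376 and 1128 in Control cells. Its log2 fold change was 0.67 ± 0.092 (SE; limma's adjusted p = 4.55e-06). The single Rhoa probe was under the background limit on all 6 arrays, so the level of this GTPase was not measured.

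Rock1 encodes a kinase that promotes phosphorylation of myosin light chains. It had 426, 383 and 411 in Glis2KD cells, against 453, 675 and 694 in Control cells. Control replicate 1 lay close to the knockdown arrays and the other two control arrays lay well above them. Its log2 fold change was -0.55 ± 0.12 (SE; limma's adjusted p = 0.00101). Rock1 is on chromosome 18, where its 50 nearest genes above background had shifted by -0.18, and relative to them it had -0.37 (limma's adjusted p = 0.0154). With the most frequent intensity subtracted it was not called (limma's adjusted p = 0.175, the highest of 17 alternatives, with 4.61e-06 the lowest).

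Of the proteins that cut actin filaments, Gsn fell and Cfl1 rose. Gsn, gelsolin, severs and caps filaments when calcium rises. It had 905, 836 and 898 in Glis2KD cells, against 1767, 1423 and 1694 in Control cells. All knockdown arrays were lower by a wide margin, with a log2 fold change of -0.88 ± 0.094 (SE; limma's adjusted p = 9.41e-08). As the mean over its 2 probes, of which the second was under the background limit, it was -0.39. Cfl1, the nonmuscle cofilin, had 3271, 3203 and 2957 in Glis2KD cells, against 2206, 2652 and 2397 in Control cells, a log2 fold change of 0.38 ± 0.091 (SE; limma's adjusted p = 0.00267). Its neighbours on chromosome 19 had shifted by 0.31, and relative to them it had 0.07 and was not called (limma's adjusted p = 0.626, the highest of 17 alternatives, with 0.00156 the lowest). Cfl2, the muscle cofilin, was not called at -0.14 on its brighter probe, and its second probe fell by 0.41.

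Whether the members changed by the same amount as Acta2 was tested as the log2 difference from Acta2 within each array. All 29 other members above the background limit changed by less, from -2.11 ± 0.21 (SE) for Pdlim7 to -4.58 ± 0.21 (SE) for Mylk, each called by limma. All genes share the array values of Acta2 here, which gives them 1 common SE and p-values that are too small. This sets Acta2 apart rather than the members, since 99.97% of all genes differed from Acta2 in the same test. It was called for all 29 with dim genes left out, and it was not computed relative to neighbouring genes. The 13 members not above the limit were also called, but their log2 fold changes are held near 0 by background and show nothing here. For Actg2, whose control arrays were under the limit, the difference has no exact size. The size of the gap also depends on the brightest Acta2 probe. As the mean of probes Acta2 had 0.98, Rhoc 0.76 and Myl6 0.75, and all 42 other members were still called as changed by less.

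Related genes outside the member list went in both directions. Of 20 measured SRF and MRTF target genes 9 rose, 3 fell and 8 were not called, where 22.5% of all genes were called. Of the 20, 18 were above the background limit, and 43.3% of all genes above it were called, 21.3% as higher. The 9 became 5 without Glis2KD replicate 2, 6 without Control replicate 2 and 5 with the most frequent intensity subtracted, where 1 fell. The LIM domain proteins Csrp2 and Csrp1 rose by 1.86 and 1.40 and the matrix protein gene Ccn1 by 1.56, while the immediate early factor Egr1 had -1.05, on chromosome 18 among genes shifted by -0.46. Of 35 genes of actin assembly and bundling, of which 31 were above the background limit, 10 rose and 3 fell. In both directions together this is no larger a share than the 43.3% called among all genes above the limit. The share called higher was 21.3% among all genes above the limit. Relative to neighbouring genes 6 of the 35 fell. Palladin, Palld, and cortactin, Cttn, rose by 1.08 and 0.86, and tropomodulin 3, Tmod3, and the nucleation promoter Wasl had -1.45 and -0.88. The medians of both lists were 0.18 and 0.05, in that order. All values named here were called by limma, and the lists were chosen with earlier results of these data known.

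**Figure D5:**
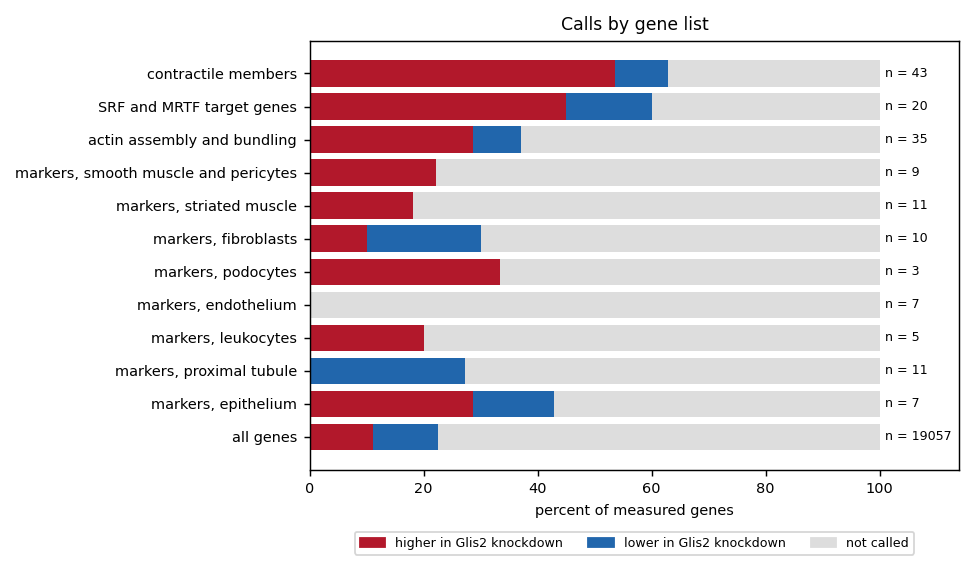
Percent of measured genes called higher (red) or lower (blue) in Glis2 knockdown over control, or not called (grey), for the contractile genes, the related lists, markers of cell types and all genes. The bar for the contractile genes holds 23 higher and 4 lower of 43, and that for all genes 22.5% called.

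Markers of other contractile and stromal cells were mostly at background. For scale, 22.5% of all genes were called, and 43.3% of those above the background limit. Of 9 smooth muscle and pericyte markers 4 lay above the limit and 2 rose, Hspb6 by 0.41 and Mcam by 0.34. Notch3 averaged 314 in Glis2KD cells and 373 in Control cells, and Itga8 averaged 151 in Glis2KD cells and 146 in Control cells, neither called. Pdgfrb, Cspg4, Rgs5, Kcnmb1 and Pln were not above it. Mcam was not called without Control replicate 1 or Glis2KD replicate 2 (limma's adjusted p = 0.109 and 0.0695), with the most frequent intensity subtracted (0.174) or as the mean of its probes (0.0782). The summed intensity of the 9 markers was 5514 to 6193 in Glis2KD arrays and 4569 to 5007 in Control arrays. Most of that difference is Hspb6 and Mcam, which averaged 3592 and 1214 in Glis2KD cells and 2696 and 959 in Control cells. Of 10 fibroblast markers 2 were above the limit, Dcn at -0.98 and S100a4 at -0.41, both called lower. The other 8, Col1a1, Col3a1, Pdgfra and Postn among them, were not above it. Of these Col1a2 was called at 0.26, with means of 135 in Glis2KD cells and 112 in Control cells, and lost that call in 6 alternatives. Those were an offset of 50, subtraction of the most frequent intensity and leaving out Control replicate 1, Control replicate 2, Glis2KD replicate 2 or Glis2KD replicate 3, with limma's adjusted p from 0.0610 to 0.429. Their sums were 1279 to 1300 in Glis2KD arrays and 1409 to 1506 in Control arrays. Of 11 striated muscle markers 3 were above the limit and 2 rose, Mb by 0.63 and Tnni2 by 0.53. The sums of the 11 were 2169 to 2214 in Glis2KD arrays and 1806 to 1859 in Control arrays. Most of that difference is Tnni2 and Mb, which averaged 749 and 355 in Glis2KD cells and 520 and 230 in Control cells. Endothelial markers were called in 0 of 7 cases and leukocyte markers in 1 of 5, Csf1r at 0.44, which was 0.94 and not called with the most frequent intensity subtracted (limma's adjusted p = 0.139).

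Tubular and epithelial markers moved beside the contractile genes. Aqp1 had -4.77, Mme was at least 6.17-fold lower and Dab2 had -0.46, which is 3 of 11 proximal tubule markers fallen and 0 risen. The share called lower was 11.4% over all genes, and 43.3% of genes above the background limit were called in either direction. The summed intensity of the 11 was 3753 to 4067 in Glis2KD arrays and 14184 to 15977 in Control arrays. Most of that difference is Aqp1, which averaged 365 in Glis2KD cells and 9760 in Control cells, and 8 of the 11 were not above the background limit. Of 7 epithelial markers the keratins Krt8 and Krt18 rose by 0.57 and 0.40 and the cadherin Cdh1 fell by 0.38. Both keratins lie on chromosome 15 among genes shifted by 0.37 and 0.39, and relative to these Krt8 had 0.20 and Krt18 had 0.0076, neither called (limma's adjusted p = 0.101 and 0.963). With the most frequent intensity subtracted Krt18 and Cdh1 were not called (0.0566 and 0.0960). The part of these shifts in the contractile genes was not tested.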

How the data were processed

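RNA of 6 cell samples was hybridised with Cy3 label to an Illumina mouse bead array, per the labels' protocols. The deposited table holds a linear intensity per probe. For their normalization nothing was given in the sources used here. The values show arrays already brought to 1 distribution, with background included. Intensities were floored at 16 and taken to log2. The platform annotation names 1 gene for 34885 of 45281 probes, several for 18 and none for 10378. Each of 19057 genes was represented by its brightest probe over the 6 arrays.

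Glis2KD was compared with Control in limma 3.58.1 (R 4.3.3; lmFit and eBayes), with Benjamini-Hochberg adjustment over all genes at 0.05. Single probes were fitted likewise. The fit was also run on simulated data with independent noise and far fewer changed genes than were called here, and no result rests on it. Precision is limited by the few arrays. The members, lists, the background limit and the tests were chosen with earlier results of these data known. All 46 members are named, with array values for those called at 0.5 or more in log2 size, for Actb and for SRF and its coactivators, and for others where they help. Of each related list up to 4 called genes with the smallest p are named. A fold against a group wholly under the background limit is given as at least that fold over the limit. Replicate numbers did not pair the arrays. Alternatives covered normalization, background, filters, the variance model, probe averaging, neighbouring genes, a replicate block and leaving out each array. Gene positions and promoters are from RefSeq, GRCm38.p6. One further list of related genes is not reported here.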

Additional observations from a re-analysis of the deposited data

How the results depend on the processing

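Of the 27 called members, 14 kept their call and direction under all of the 17 alternatives that gave a value: Acta2, Actg2, Flna, Myh10, Myl6, Myl9, Myl12a, Mylk, Tagln2, Tpm4, Pdlim7, Rhob, Rhoc and Gsn. With the most frequent intensity subtracted, genes called numbered 2640 in place of 4291, 16 members were higher and 2 were lower. The cause was not tested. With the mean of probes Myl12b turned from -0.18 to 0.25. Leaving out 1 array at a time gave 3754 to 3984 genes called, 19 to 23 higher members and 4 lower ones. With the replicate block, genes called numbered 4130, and 22 higher members and 4 lower members were called. Same-numbered arrays had deviations that correlated at -0.0921, -0.0386 and -0.0377, and the numbers were not taken as pairs. Low signal over background limits what the 11 uncalled dim members can show.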
